A study of Brassica napus with 6 samples.

Results

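In cotyledons of oilseed rape (Brassica napus), 278 of 100919 genes counted by RNA sequencing stood at least 4-fold higher in a bnsdp1 mutant than in the wild type (WT) and were well expressed in the mutant. Poly(A) RNA was sequenced in 3 mutant and 3 WT libraries. The mutant is the line that the design text calls bnsdp1#CR88, and no further allele, agent or background is given for either genotype. Both genotypes were raised on MS-based medium with 1% sucrose, kept in the dark for 4 days and then moved to normal conditions for 6 h before cotyledons were taken. No mutant line other than bnsdp1#CR88 is named, so the genotype and other features of that line cannot be told apart. Whether each replicate is its own batch of plants is not stated in the labels, and the spread between libraries may be technical.

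SDP1 (SUGAR-DEPENDENT1) is known from Arabidopsis as the triacylglycerol lipase that starts the breakdown of seed oil. Fatty acids released from the oil bodies of the cotyledon pass through beta-oxidation, the glyoxylate cycle and gluconeogenesis to yield sugar, which feeds the seedling until photosynthesis takes over. A dark-grown seedling has pale, closed cotyledons that turn green after the move to light, a change that involves many genes. Brassica napus joins an A and a C subgenome, so most genes have a partner copy of similar sequence in the other subgenome.

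Members were chosen by their levels in the comparison itself. Levels are CPM, the count of a gene divided by the library's total count in genes and scaled to counts per 1e6. A member had a mean below 500 CPM over the 6 libraries, a mutant mean of at least 50 CPM, a WT mean of at least 0.5 CPM, a ratio of mutant to WT mean of at least 4, and a lowest mutant value above the highest WT value. The higher level in the mutant is therefore given as a description, with no test. In bulk tissue, more cells of a type and more RNA per cell cannot be told apart.

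The rule passed few of the genes at this level. In all, 3453 genes had a mutant mean of at least 50 CPM, and 3255 of them also had a mean below 500 CPM. Of those 3255 genes, 294 had a ratio of at least 4. The WT floor removed 16 of these, and no gene was lost to an overlap between the groups, so 278 genes (8.54% of the 3255) were members. A further 11 genes met every criterion except the upper limit of 500 CPM. The other 2977 genes of the 3255 are called here the other genes at this level. They too were chosen on their mutant mean, and they include the 16 genes that the WT floor removed. At the ratio threshold the nearest member had 4.01 and the nearest gene left out 3.997. For the mutant mean the nearest values were 50.2 CPM inside and 49.7 CPM outside, for the WT mean 0.717 and 0.479 CPM, and for the overall mean 493 and 518 CPM.

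Depth was high in every library, with 48288744 to 65550668 counts in genes. Pearson's r of log2(CPM + 0.5) across the 56385 tested genes was 0.985 to 0.993 between libraries of a genotype and 0.887 to 0.915 between genotypes, where genes are not independent replicates. No library repeated another of its genotype within sampling noise (chi-square over degrees of freedom 7.30 or more). The identifiers are not paired with gene names in the files, and none of the 278 matched the 123214 genes of a RefSeq table of another assembly (Da-Ae). Roles of the members, the level of the targeted SDP1 copies and the cotyledon label were therefore not checked here, and only 2 identifiers are printed. The remaining members are given by their rank in the ratio, their chromosome and their span.

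The member with the highest ratio was BnaC06G0072700ZS, on the minus strand of chromosome C06 from 14231601 to 14232743 (a span of 1143 bp, genome build not given in the sources used here). Its level was 358, 310 and 324 CPM in mutant replicates 1, 2 and 3, against 0.915, 0.366 and 0.934 CPM in WT replicates 1, 2 and 3. Every mutant library lay far above every WT library, and WT replicate 2 was the lowest of all. The means were 331 ± 24.5 CPM in the mutant and 0.738 ± 0.323 CPM in WT (SD, n = 3 each), a ratio of 448. The WT values rest on 52, 24 and 48 reads. With reads pooled over libraries the ratio was 462, with an exact (Clopper-Pearson) 95% interval of 387 to 555 that covers counting error only.

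The member with the highest mutant level was BnaC05G0447600ZS, on the minus strand of chromosome C05 from 49879562 to 49880416 (855 bp). It had 1050.4, 903.7 and 937.6 CPM in the mutant libraries, against 25.07, 22.41 and 20.04 CPM in the WT libraries. The groups were far apart, and replicate 1 was the highest library of both genotypes. The means were 964 ± 76.8 CPM in the mutant and 22.5 ± 2.52 CPM in WT (SD, n = 3 each), a ratio of 42.8. It ranked 33 by ratio. Per kilobase of span it was also the most abundant member, at 1127 CPM per kb in the mutant and 26.3 CPM per kb in WT.

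Ratios spread over a wide range, with a median of 9.14 and quartiles of 5.71 and 19.4. A ratio of 4 to 8 was found for 124 members (44.6%), one of 8 to 16 for 68, one of 16 to 32 for 39, one of 32 to 64 for 28, and one of 64 or more for 19. The median mutant level was 105 CPM in the class of 4 to 8 and 226 CPM in the class of 64 or more. The median WT level of the same classes was 20.2 CPM and 2.00 CPM. Differences in ratio among members thus went more with the WT level than with the mutant level. Spearman's rho across the 278 members was -0.76 between WT level and ratio and 0.11 between mutant level and ratio. Both values are descriptions, since the ratio contains each level and the rule bounds them.

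**Figure D1:**
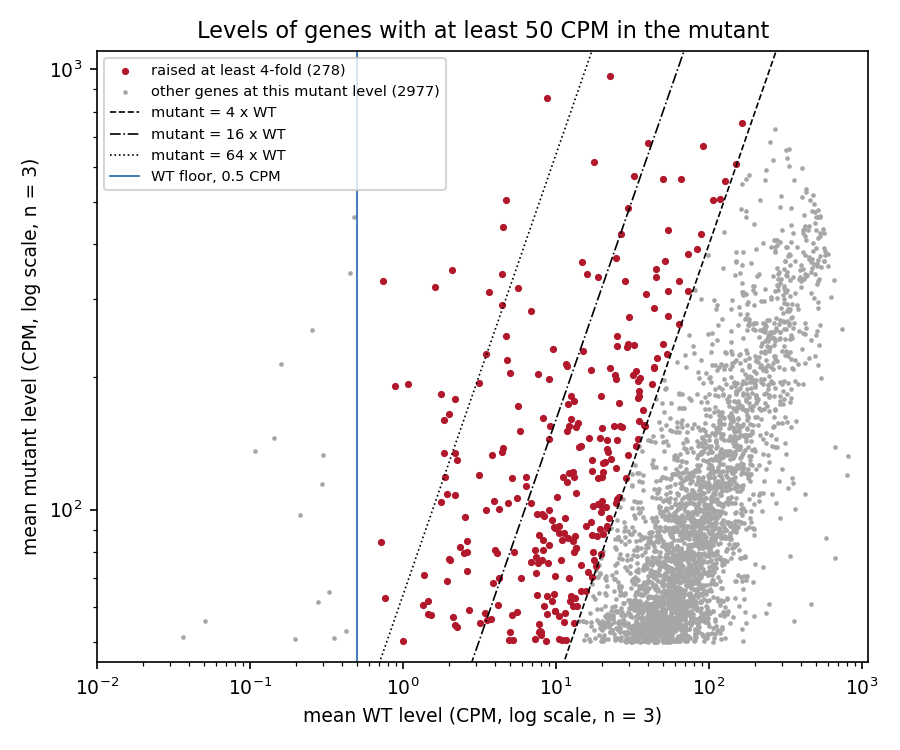
Mean level in the mutant (vertical axis) against mean level in WT (horizontal axis), both in CPM on log scales, for the 3255 genes with a mutant mean of at least 50 CPM and an overall mean below 500 CPM. Red points are the 278 members, grey points the 2977 other genes; the black lines mark mutant levels of 4, 16 and 64 times WT, and the blue line the WT floor of 0.5 CPM, left of which lie the 16 genes it removed.

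Most members had a WT level above the median of all tested genes, and some were near 1 CPM in WT. The rule itself set a WT floor of 0.5 CPM. The median member had 118 CPM in the mutant and 11.9 CPM in WT, and the middle 50% lay between 77.7 and 198 CPM in the mutant and between 5.40 and 22.2 CPM in WT. The median WT level of all tested genes was 4.15 CPM. In WT, 5 members were below 1 CPM, 65 below 5 CPM and 121 (43.5%) below 10 CPM, while 19 were at 50 CPM or more. The WT reads behind a member, pooled over the 3 libraries, had a median of 2072 and a minimum of 121, and the ratios of the members with the fewest have the widest counting intervals. Members also differed in how far apart the genotypes lay: the lowest mutant value was 2.46 to 332 times the highest WT value, with a median of 7.43.

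Among the strongest members were several close neighbours. Rank 2 in ratio was a gene of 1705 bp on A03 with 238, 178 and 157 CPM in the mutant libraries, against 0.915, 0.732 and 1.01 CPM in the WT libraries. Rank 3 was a gene of 2896 bp on C07 with 390, 296 and 276 CPM in the mutant libraries, against 1.90, 1.53 and 1.40 CPM in the WT libraries. Both were highest in mutant replicate 1, and no WT library of either reached 2 CPM. Ranks 4 and 5 were adjacent genes on the plus strand of C01, 29 bp apart. The gene of rank 4 had 190, 201 and 188 CPM in the mutant libraries, against 1.44, 0.885 and 0.895 CPM in the WT libraries. The gene of rank 5 had 331, 363 and 353 CPM in the mutant libraries, against 2.31, 1.63 and 2.32 CPM in the WT libraries. In this pair, unlike at ranks 2 and 3, mutant replicate 2 was the highest library.

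**Figure D2:**
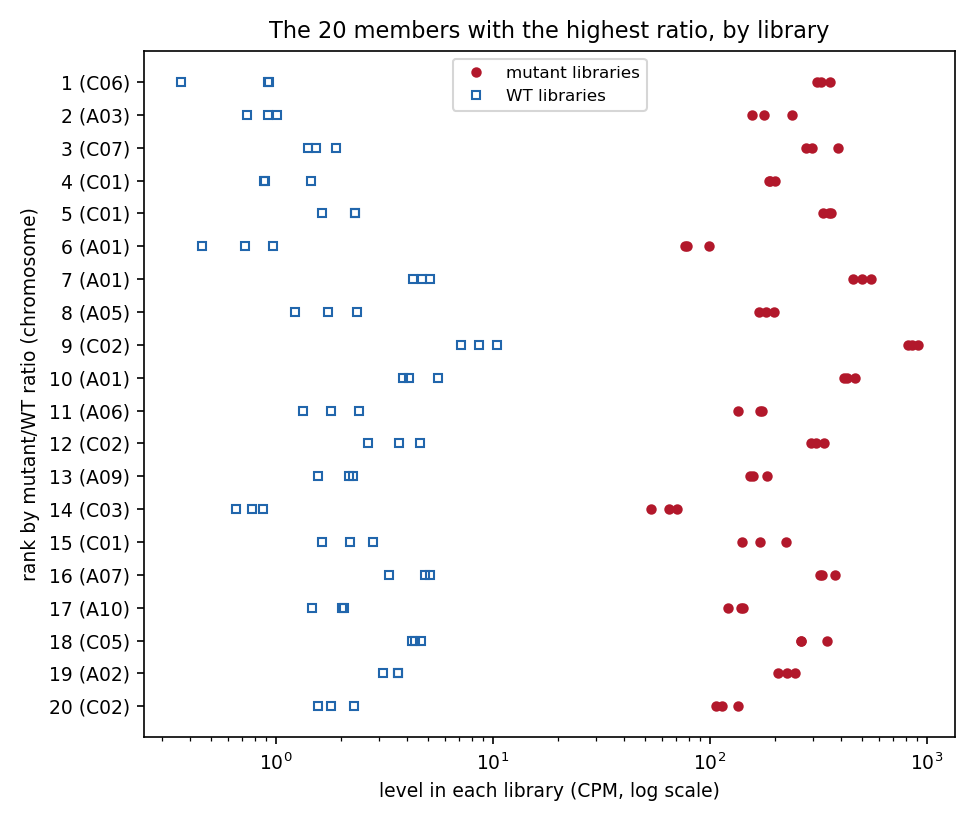
Level in each library (horizontal axis, CPM, log scale) of the 20 members with the highest ratio, ordered from rank 1 at the top, with the chromosome in brackets. Filled red circles are the 3 mutant libraries and open blue squares the 3 WT libraries. In every row the mutant values lie well to the right of the WT values. The rule requires only that they do not overlap, and these rows were picked for their high ratio. Rank 9 on C02 has the highest mutant values.

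Ranks 9 and 12 formed another pair of adjacent genes, on C02. The gene of rank 9 was the second most abundant member, with 909, 851 and 818 CPM in the mutant libraries, against 10.5, 8.60 and 7.12 CPM in the WT libraries. Its neighbour had 336, 293 and 308 CPM in the mutant libraries, against 4.61, 3.69 and 2.65 CPM in the WT libraries. The 2 genes lie head to head, 11946 bp apart, and both were highest in replicate 1 of either genotype.

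High mutant levels were also reached by members with a small ratio. The third most abundant member, a gene of 7684 bp on C01 that ranked 246 by ratio, had 784, 713 and 771 CPM in the mutant libraries, against 166, 155 and 174 CPM in the WT libraries. Its WT level was the highest of all members, and its ratio was 4.58. A gene of 3568 bp on A10, rank 276, had 496, 621 and 705 CPM in the mutant libraries, against 156, 163 and 128 CPM in the WT libraries. Here mutant replicate 1 was the lowest mutant library, in contrast to most members.

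Members made up a larger share of the genes at high mutant levels. They were 5.91% of the 1963 genes with a mutant mean of 50 to 100 CPM, 11.1% of 839 genes at 100 to 200 CPM and 13.2% of 418 genes at 200 to 500 CPM. Between 500 and 1000 CPM they were 14 of 35 genes. The last share is set in part by the rule, since the limit of 500 CPM on the overall mean leaves room for a mutant mean above 500 CPM only where WT is lower. The median ratio of the members differed little between these classes, from 8.46 in the lowest to 9.89 in the highest.

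Together the members took 4.92%, 4.36% and 4.65% of all counts in mutant replicates 1, 2 and 3, against 0.519%, 0.512% and 0.518% in WT replicates 1, 2 and 3. The WT libraries were nearly equal in this sum, and mutant replicate 1 was the highest and replicate 2 the lowest of the mutant libraries. The means were 4.64% ± 0.279 in the mutant and 0.516% ± 0.00381 in WT (SD, n = 3 each). Relative to the WT mean the sum was 9.53, 8.45 and 9.0 times as high in mutant replicates 1, 2 and 3. The sum was shared by many genes: the 10 most abundant members held 14.7% of the summed mutant level, and 61 members were needed to reach 50% of it.

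The mutant libraries differed in how often each was the highest. Mutant replicate 1 was the highest mutant library for 189 of the 278 members (68.0%, exact 95% binomial interval 62.2 to 73.4), replicate 3 for 66 and replicate 2 for 23. Replicate 2 was the lowest for 193 members (69.4%). Among the 2977 other genes at this level, replicate 1 was the highest for 43.0% and replicate 2 the lowest for 36.0%. The single most frequent order, replicate 1 above 3 above 2, held for 148 members (53.2%) and for 23.3% of the other genes when levels were scaled by column sums. It held for 104 members (37.4%) and 12.5% of the other genes after TMM scaling, and for 98 (35.3%) and 10.3% with DESeq2 size factors. Members share libraries and are not independent, so the interval covers only the counting of genes and no test was made.

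This order depended in part on how libraries were scaled. After TMM scaling, replicate 1 was highest for 63.7% of the members and 33.6% of the other genes, and replicate 2 was lowest for 50.7% and 19.8%. With DESeq2 size factors replicate 1 was highest for 61.5% and 31.0%, and replicate 2 lowest for 47.5% and 16.2%. In size the offsets were small. The median member lay 0.088 above its own mutant mean in replicate 1 on the log2 scale, -0.099 from it in replicate 2 and -0.010 in replicate 3. For the other genes these medians were 0.012, -0.013 and -0.002.

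**Figure D3:**
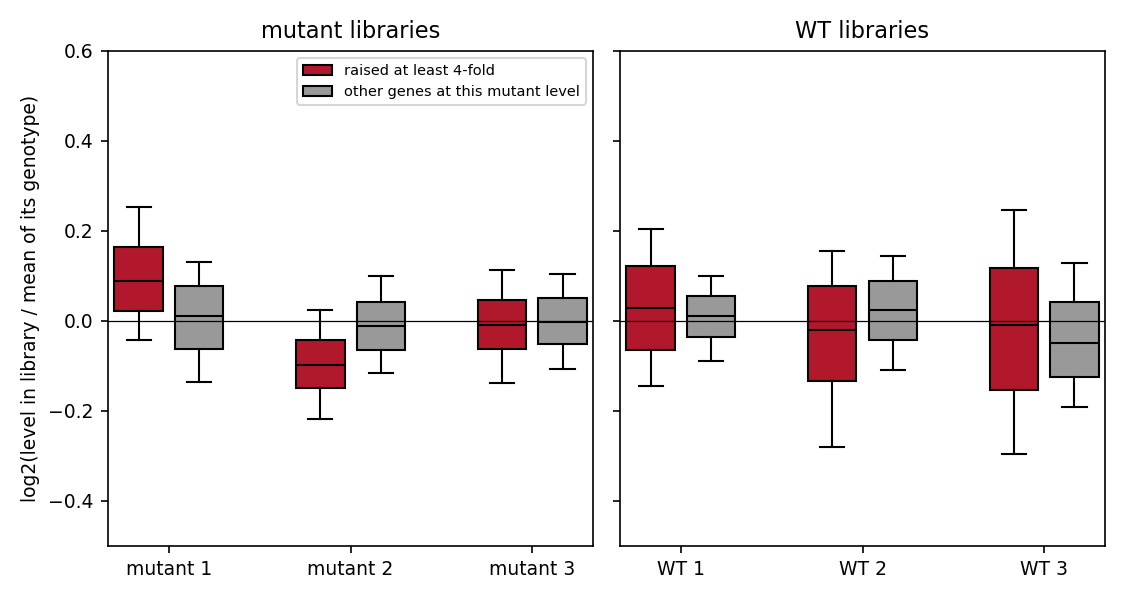
Level of each gene in a library relative to the mean of its genotype (log2 scale), for the mutant libraries (left panel) and the WT libraries (right panel). Boxes show the quartiles and median and whiskers the 10th and 90th percentiles over genes, red for the 278 members and grey for the other genes at this level with a read in every WT library; the members sit above 0 in mutant replicate 1 and below 0 in replicate 2.

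In WT no single order was held by as large a share of the members as in the mutant. With column sums, WT replicate 1 was the highest for 105 members, replicate 3 for 103 and replicate 2 for 70. Each of the 6 possible orders was then held by 5.76% to 22.3% of the members. WT replicate 3 was often the lowest, for 41.7% of the members and 55.2% of the other genes. After TMM scaling it was the lowest for 49.3% and 67.4%, and with DESeq2 size factors for 48.2% and 66.3%. The most frequent WT order then held for 27.7% of the members after TMM scaling and 27.3% with DESeq2 size factors. Genes lowered at least 4-fold by the mirrored rule (123 genes) also differed between mutant libraries, with replicate 1 the lowest mutant library for 78 of them (63.4%) and replicate 3 the highest for 75. Mutant replicate 1 was thus most often the mutant library farthest from WT in both sets. Among the lowered genes, WT replicate 3 was likewise most often the WT library farthest from the mutant.

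Spread between libraries was wider among members than among the other genes at this level. The median coefficient of variation (SD over mean, n = 3) was 8.74% in the mutant and 11.04% in WT for the members, against 6.09% in the mutant and 6.93% in WT for the other genes. In the mutant, 160 members (57.6%) varied by less than 10%, compared with 80.8% of the other genes. The WT values of members are lower than those of the other genes by the rule, so the WT spread is not one at equal level. After TMM scaling the mutant medians were 7.36% for the members and 6.16% for the other genes. The WT medians were then 11.4% for the members and 8.23% for the other genes. The members thus kept the higher median under both scalings, by a smaller margin after TMM, and no test was made.

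A few members varied strongly in the mutant. There, 8 members (2.88%) had a coefficient of variation above 25%, against 1.85% of the other genes at this level. Mutant replicate 1 was the highest library for 7 of these 8 members, and for 68.0% of all members. The widest was a gene of 2641 bp on A06, rank 44, with 180, 103 and 116 CPM in the mutant libraries, against 4.54, 3.72 and 3.23 CPM in the WT libraries. At 30.9% its mutant spread was still far smaller than its distance from WT. At the other end, a gene of 3263 bp on C03, rank 271, had 156, 155 and 156 CPM in the mutant libraries, against 40.1, 41.9 and 30.8 CPM in the WT libraries. Its coefficient of variation of 0.439% in the mutant was the smallest of all members. In WT, 35 members (12.6%) had a coefficient of variation above 25%, against 1.51% of the other genes, at WT levels that differ by the rule. The widest WT spread, 60.002%, belonged to a gene of 2241 bp on A02, rank 36. It had 232, 165 and 214 CPM in the mutant libraries, against 4.61, 8.15 and 2.20 CPM in the WT libraries.

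Most members reached the ratio in each mutant library taken alone. The rule used these same libraries, so the counts below describe the members and are no separate check. Set against the WT mean, 274 members were at least 4-fold higher in mutant replicate 1, 262 in replicate 2 and 273 in replicate 3. The median ratios to the WT mean were 9.74, 8.29 and 8.75 in that order of replicates. Leaving out single libraries and applying the rule to the other 5 gave 269 to 299 genes, of which 262 to 276 were among the 278 members.

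Subgenomes contributed about equally. Of the members, 136 lay on A chromosomes and 142 on C chromosomes, and none on unplaced sequences. The A share of 48.9% (exact 95% binomial interval 42.9 to 55.0) was close to the 47.8% of the other genes at this level and the 48.7% of all tested genes. The median ratio was 8.66 for A members and 9.34 for C members, and the median span 2342 bp and 2288 bp. Summed over members, the mean mutant level was 20909 CPM on A and 25534 CPM on C chromosomes. Copies of a gene on A and C could not be paired here. How reads that match several copies were counted is not stated, which makes any member with a near-identical copy elsewhere uncertain.

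All 19 chromosomes held members, 9 at the fewest (A08) and 28 at the most (C03). As a share of the genes at this level, members ranged from 5.03% on C08 (10 of 199 genes, exact 95% binomial interval 2.44 to 9.05) to 13.3% on A10 (18 of 135 genes, 8.10 to 20.3). The interval of each chromosome included the overall share of 8.54%. These intervals cover only the counting of genes, neighbouring genes are not independent, and no test was made. On C01 the share was 12.2% (19 of 156 genes), and on C02 11.1% (11 of 99 genes). Members on C02 had the highest median ratio, 21.5, and those on A05 the lowest, 5.24.

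**Figure D4:**
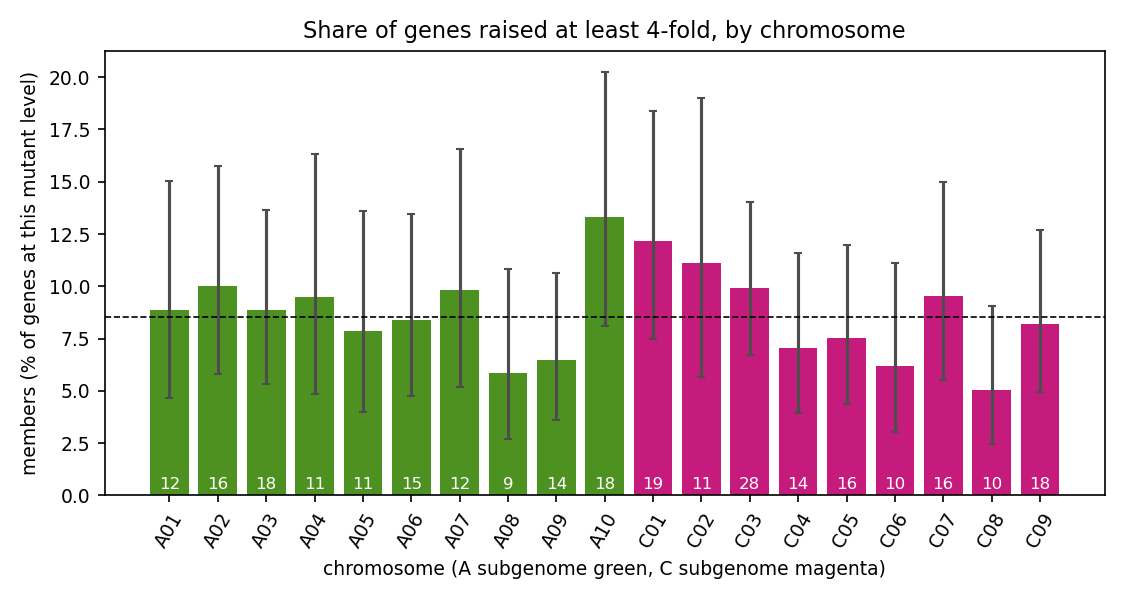
Members as a percentage of the genes at this level on each chromosome (bars, A subgenome green and C subgenome magenta), with exact 95% binomial intervals and the number of members in white. The dashed line is the overall share of 8.54%. A10 is the highest at 13.3% and C08 the lowest at 5.03%. Each interval crosses the line, and the intervals cover only the counting of genes.

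Members were also counted in 3 stretches picked from earlier results of these data, so the counts are a description and were not tested. Over all 3255 genes at this level, 8.54% were members. On A07 from 27 to 32 Mb, the 625 tested genes had a median log2 fold change of -0.57, and the stretch held 0 members among 30 genes at this level. On C06 from 46 to 51 Mb, the median over 499 tested genes was 0.43, and the stretch held 2 members among 36 genes, with ratios of 4.60 and 5.69. In the first 15 Mb of A01 the median over 1518 tested genes was -0.34, and 7 of 84 genes at this level were members, and their ratios ran from 4.25 to 118.

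Along the chromosomes the members were placed much as other well-expressed genes. With the last annotated gene taken as the chromosome end, 92 members (33.1%) lay in the outermost 10% at either end, compared with 33.5% of the other genes at this level and 30.7% of all tested genes. The central 40% of the chromosomes held 57 members (20.5%), 22.9% of the other genes and 26.7% of tested genes. Within 1 Mb of an end lay 21 members (7.55%), against 7.02% of the other genes. The plus strand carried 141 members (50.7%).

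Some members lay close together. A further member started within 50 kb for 35 of the 278 (12.6%), which formed 16 pairs and 1 group of 3. Among the 123 genes lowered by the mirrored rule the same held for 6 (4.88%). The sets differ in size, and a larger set has more close neighbours, so the shares are not set against each other. No such share was computed for other genes at this level. Whether 12.6% is more than for other genes was therefore not tested. Of the 17 groups, 8 had all members on 1 strand, and within 13 of the 17 the ratios were within 2-fold of each other. The 124 members (44.6%) with a ratio of 4 to 8 are all within 2-fold of each other wherever they lie. No comparison with members far apart was made. The group of 3, on the minus strand of A10 with starts within 17.0 kb, had ratios of 7.52 to 14.5. The widest contrast was on C05, where a member with a ratio of 65.9 started 20.9 kb from a member with a ratio of 4.35.

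Gene span was not used by the rule, and its quartiles were much alike in members and other genes. Spans in the files run from gene start to gene end, introns included. The median was 2307 bp for the members, with quartiles of 1330 and 3506 bp, and 2270 bp for the other genes at this level, with quartiles of 1322 and 3519 bp. All tested genes had a median of 1790 bp. At the extremes the sets were less alike. Spans above 5000 bp were found for 17 members (6.12%), against 12.8% of the other genes and 8.72% of all tested genes. Spans of 10000 bp or more were found for 2 members (0.719%), against 2.15% of the other genes and 1.59% of tested genes. Spans of 300 bp or less were found for 7 members (2.52%), against 11 of the 2977 other genes (0.369%) and 2.45% of all tested genes.

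The highest median ratio belonged to members of 1000 to 2000 bp, not to the shortest. Spearman's rho between span and ratio was -0.24 across the 278 members. The median ratio was 8.63 for the 46 members under 1000 bp, 17.2 for the 70 members of 1000 to 2000 bp, 8.90 for 68 members up to 3000 bp, 7.26 for 77 members up to 5000 bp and 6.18 for the 17 longer ones. The highest ratio among the 17 longest members was 17.7. The longest member, a gene of 14032 bp on A07, had a mutant mean of 313 CPM and a WT mean of 53.7 CPM, a ratio of 5.84.

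The 7 shortest members had spans of 192 to 275 bp and ratios of 7.79 to 61.5. The highest of these was a gene of 225 bp on C09 with a mutant mean of 134 ± 18.9 CPM and a WT mean of 2.18 ± 0.503 CPM (SD, n = 3 each). Per kilobase of span that gene had 597 CPM per kb in the mutant, compared with 56.3 CPM per kb for the median member. CPM is not divided by length, so a short gene needs a higher level per kilobase to pass the threshold of 50 CPM.

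Of the 278 members, 5 (1.80%) overlapped another annotated gene, against 1.91% of the other genes at this level. No strand setting of the counting is given in the sources used here, and without strand the reads of a gene and its antisense partner cannot be separated there.

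A fit across all genes was run to describe genes that the rule did not use. All 278 members were among the 56385 tested genes. All 278 were called higher in the mutant by edgeR's quasi-likelihood test with Benjamini-Hochberg adjustment (false discovery rate, FDR, under 0.05). All 278 also had an estimated fold change of at least 4. Of all tested genes, 25.5% were called higher, and 3.30% were called higher with an estimate of at least 4-fold. Fold limits here and below are cutoffs on the estimate, as the test itself was against no change. Mutant values lay above WT values without overlap for 27.6% of tested genes. Since the rule used this comparison, nothing is read from the members' counts.

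Genes next to the members were called higher more often than the background. The nearest tested gene on each side of a member, members left out, gave 534 flanking genes, at a median distance of 5959.5 bp. Of these, 198 (37.1%) were called higher in the mutant and 118 (22.1%) lower, against a background of 25.5% higher and 26.2% lower over all tested genes (edgeR, FDR under 0.05). At least 2-fold rises were called for 101 flanking genes (18.9%, background 9.23%) and at least 2-fold falls for 60 (11.2%, background 13.0%). The median log2 fold change was 0.14 among the flanking genes and 0.02 among all tested genes. Flanking genes had median levels of 4.85 CPM in the mutant and 4.39 CPM in WT, compared with 3.84 and 4.15 CPM for all tested genes.

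Flanks of the other genes at this level were nearer to the background. Of 5336 genes that flank them, 27.1% were called higher and 27.9% lower, and 10.4% were at least 2-fold higher. Next to the 123 lowered genes, 48 of 242 flanking genes (19.8%) were called higher and 84 (34.7%) lower. No test of the difference between these sets was made, as neighbouring genes are not independent.

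The share of calls differed with arrangement, which was described and not tested. Flanks of the other genes at this level were not split by arrangement. Whether the differences below are particular to members was therefore not tested. Flanking genes that lay head to head with a member, so that the 2 starts face each other, were called higher in 63 of 141 cases (44.7%) and lower in 27 (19.1%). On the same strand as the member, 100 of 263 (38.0%) were higher and 51 (19.4%) lower. Tail to tail, 37 of 135 (27.4%) were higher and 42 (31.1%) lower. Some genes flank members on both sides and are counted in 2 classes. Within 10 kb of the member, 135 of 337 flanking genes (40.1%) were called higher, and within 1 kb, 41 of 114 (36.0%). Called at least 2-fold higher were 21.1% within 10 kb and 21.9% within 1 kb, and called lower were 22.3% and 28.9%.

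**Figure D5:**
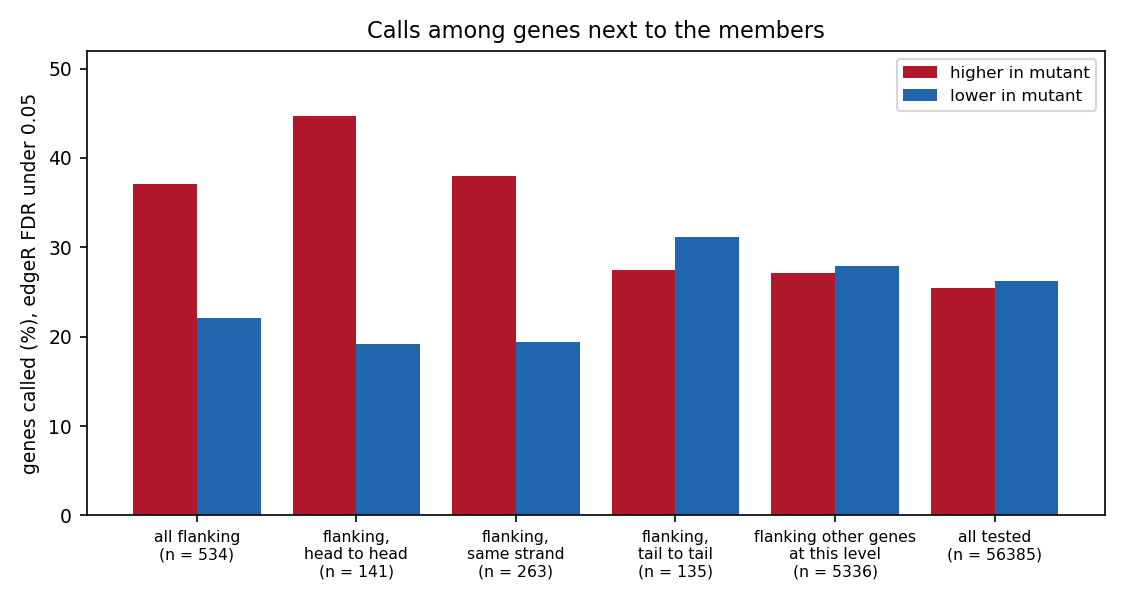
Percentage of genes called higher (red) and lower (blue) in the mutant by edgeR at an FDR under 0.05, among the genes that flank the members, the same split by arrangement, the genes that flank the other genes at this level, and all tested genes. The number of genes is given under each pair of bars; 44.7% of the genes head to head with a member were called higher, compared with 27.4% tail to tail and 25.5% of all tested genes.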

How the data were processed

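The deposited values are raw counts per gene in 6 libraries, per the file headers. The authors named fastp, HISAT2 and featureCounts, per the submitters' processing notes. Tool versions, settings, strand use and genome build were not given in the sources used here. Gene length equalled the whole gene span in 100% of rows, so reads in introns can be included. Genotype was taken from the labels.

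CPM was computed from the column sums, and the member rule was applied to it. The gene fit used edgeR 4.0.16 in R 4.3.3 (filterByExpr, TMM, quasi-likelihood test, no covariate, Benjamini-Hochberg FDR under 0.05). The rule was run on simulated counts with counting noise only, and the fit on simulated counts that also varied between libraries. The former cannot show how the rule treats real genes near its thresholds. DESeq2 1.42.0 and the other alternatives are described in the closing section. Total counts were 48288744 to 65550668 per library. Intervals cover counting error only.

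Named genes are the member with the highest ratio and that with the highest mutant level. The members, lists and alternatives were chosen with earlier results of these data known.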

Additional observations from a re-analysis of the deposited data

How the results depend on the processing

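The number of members follows its thresholds: it was 154 at a fold of at least 8, 433 with a mutant floor of 25 CPM and 162 with a floor of 100 CPM. It was 278 to 294 with other scaling, no WT floor or overlap allowed, 374 at a fold of at least 3, and 269 to 299 without single libraries. Members with another within 50 kb numbered 14 at a fold of at least 8 and 12 with the floor of 100 CPM, 67 within 200 kb, and 31 to 35 without single libraries; these settings change the size of the set or of the window. The median span was 2082 bp at a fold of at least 8 and 2287 to 2336 bp without single libraries. The A share stayed between 45.9% and 49.8% in every setting run. Replicate 1 was the highest mutant library for 61.5% of members with DESeq2 size factors. The ratio of the members' median coefficient of variation to that of the other genes was 1.43 in the mutant and 1.59 in WT, 1.19 and 1.38 after TMM scaling, and 1.32 to 1.68 and 1.40 to 1.84 without single libraries.

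Flanking genes called higher made up 32.4% to 36.7% without single libraries, lowest without WT replicate 1 (background 21.2%) and next without mutant replicate 2 (32.8%, background 21.8%). It was 37.3% with DESeq2's size factors in edgeR (background 25.5%), 36.0% with DESeq2 (21.5%) and 35.6% with no filter on low counts (18.7%). Against the unchanged background of 25.5%, it was 35.5% with 2 genes on each side, 40.1% within 10 kb and 37.4% without overlapping genes. Changed genes over the whole table numbered 25676 to 28634 without single libraries, 28410 with DESeq2 and 28376 with the replicate block, which gave 36.7% for the flanking genes (background 24.8%). Deviations from the group means correlated between same-numbered libraries at r = 0.21, -0.06 and 0.07, and the numbers are not taken to pair the libraries. Depth limits the ratios of members with few WT reads, such as the interval of 387 to 555 for the highest ratio.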
